A study of Mus musculus with 15 samples.

Results

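The 10 cathepsin genes *Ctsa*, *Ctsb*, *Ctsc*, *Ctsd*, *Ctse*, *Ctsf*, *Ctsh*, *Ctsl*, *Ctss* and *Ctsz* were followed in RNA sequencing of sorted mouse brain myeloid cells. They were picked by gene name from the 38924 genes listed, each name matched 1 row, and all 10 passed the filter on low counts. Wild-type C57BL/6J male mice, all 12 months old, were fed chow (CD) throughout or a Western diet (WD) from the age of 2 months. CD11b+ brain cells were parted by FACS into those with high (CD45hi) and those with low (CD45lo) surface CD45. There were 4 CD45hi and 4 CD45lo libraries from CD-fed mice, and 3 CD45hi and 4 CD45lo libraries from WD-fed mice. The labels do not tie a library to a mouse. The study describes its deposited counts as given per animal, but not which CD45hi and CD45lo libraries came from the same one, so the p-values measure the spread between libraries.

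Cathepsins are proteases, most of which work in acidic lysosomes. They are made as inactive precursors, delivered to lysosomes, activated there by cleavage, and held in check by inhibitors such as the cystatins. Most are cysteine proteases, *Ctsd* and *Ctse* encode aspartic proteases, and *Ctsa* encodes a serine carboxypeptidase. In microglia and macrophages they degrade engulfed proteins, and some of them process antigen and the invariant chain of MHC class II.

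Each library held 11951412 to 17912272 expected counts, which are the read counts that RSEM estimates for each gene. Levels are given as cpm, read counts scaled to a common library size after TMM normalization, and 3 counts, a floor that covers counting error only, correspond to 0.156 to 0.282 cpm. The 8 microglia markers summed to 14033 to 17943 cpm in CD45lo and 6901 to 8350 cpm in CD45hi libraries, and 8 of 8 were called lower in CD45hi cells on both diets (edgeR glmQLFTest), with none at 0 throughout any group. CD45hi libraries held more RNA of border-associated macrophage markers (8 of 8 called higher on both diets, 857 to 2895 against 68.5 to 255 summed cpm), neutrophil markers (6 of 8, 741 to 3351 against 77.3 to 660) and monocyte markers (5 of 7, 406 to 831 against 11.9 to 54.5). Dendritic cell markers summed to 121 to 297 against 26.4 to 43.9 cpm, with *Cd209a* called higher on both diets and *Flt3* on the CD, of 6. Lymphocyte and NK cell markers summed to 10.9 to 136 against 3.49 to 13.1 cpm, with 3 of 6 tested called higher on the WD and 2 on the CD, and with *Cd3e* and *Cd3g* at 0 in all CD45hi libraries of WD-fed mice. Astrocyte markers were at 37.1 to 107 against 116 to 160 cpm, with 1 of 4 called lower on the WD and 2 on the CD. Their part in the differences below was not tested, and in such bulk samples fewer cells of a type and less RNA per cell cannot be told apart. Replicate 4 of the CD45hi cells from CD-fed mice and replicate 1 of those from WD-fed mice stood apart from all other libraries on the second principal component, at -93.0 and 134.7 against -21.6 to 4.50 for the rest. With both left out, 3 of the calls given below between the sorted populations changed, all past 1.5-fold (*Ctse* lost on the CD, edgeR glmTreat FDR = 0.0825, and gained on the WD, FDR = 0.0345, and *Ctsf* gained on the CD, FDR = 0.0295), and *Ctsd* was called between the diets in CD45hi cells (0.55, edgeR glmQLFTest FDR = 0.0283).

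Levels of different genes were compared in TPM, transcript units that divide each gene's reads by its effective length and scale every library to the same total. *Ctss*, the cysteine cathepsin that trims the invariant chain, was the highest of the 10 in 15 of 15 libraries, and *Ctsd*, the main aspartic protease of lysosomes, was the next in 15 of 15. *Ctss* was at 7956 ± 989 TPM (SD, n = 4) in CD45lo and 4207 ± 659 TPM (n = 4) in CD45hi cells of CD-fed mice, and at 7400 ± 984 TPM (n = 4) and 4619 ± 545 TPM (n = 3) in those of WD-fed mice. Its median place among all genes ran from 8 in CD45lo to 13 in CD45hi cells of CD-fed mice. *Ctsd* was at 4712 ± 176 and 2255 ± 167 TPM in CD45lo and CD45hi cells of CD-fed mice and at a mean of 4325 and 2991 TPM in those of WD-fed mice, with no overlap. These 2 genes made up 69.6 to 77.4% of the summed cathepsin TPM of a library.

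The middle of the order differed between the sorted populations. In CD45lo cells *Ctsl* came next, at 986 ± 64.6 TPM on the CD and 991 ± 141 TPM on the WD, whereas in CD45hi cells the next was *Ctsb*, at 685 ± 51.3 and 750 ± 94.1 TPM. *Ctsl* was in place 6 in both groups of CD45hi cells, at 398 ± 106 TPM on the CD and 417 ± 53.9 TPM on the WD. *Ctsc* stood above *Ctsz* in CD45hi cells and below it in CD45lo cells, with no overlap of libraries on the CD and an overlap on the WD. Several neighbours did not part beyond their spread, which were *Ctsh*, *Ctsa*, *Ctsl* and *Ctsc* in CD45hi cells of both diets, *Ctsb* and *Ctsa* in CD45lo cells of CD-fed mice, and *Ctsl*, *Ctsa*, *Ctsb* and *Ctsh* in those of WD-fed mice. *Ctsf* was in place 9 and *Ctse* in place 10 in every library. The highest *Ctse* level, 24.7 TPM in CD45hi cells of CD-fed mice, lay above the lowest *Ctsf* level of that group, 20.3 TPM in another library.

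**Figure D1:**
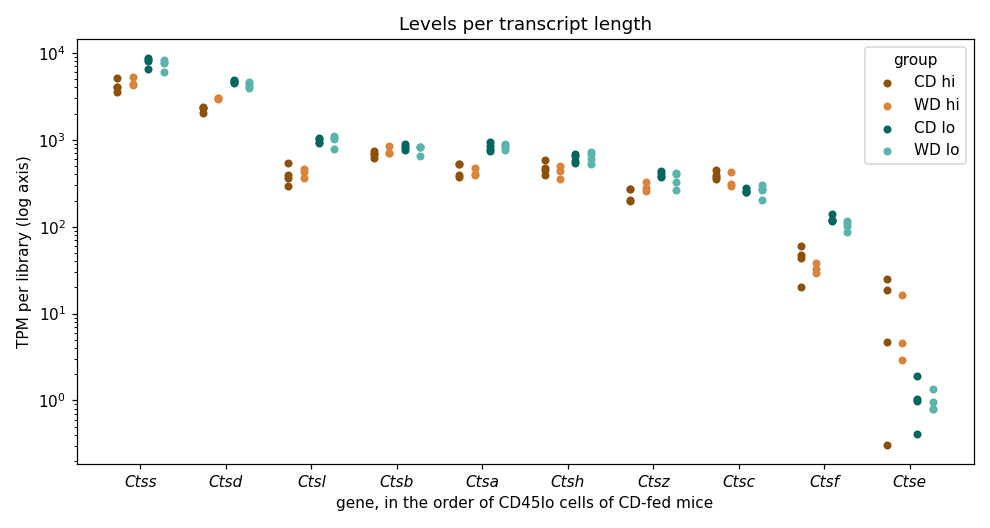
TPM of each cathepsin gene in every library on a log axis, with 1 point per library coloured by group and the genes in the order of CD45lo cells of CD-fed mice. *Ctss* and *Ctsd* lie above all others in each library, and *Ctse* lies lowest, with a wide scatter in CD45hi cells.

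The summed TPM of the 10 genes was 16709 ± 989 in CD45lo and 9160 ± 893 in CD45hi cells with the CD (SD, 4 libraries each), and 15692 ± 1491 (n = 4) and 10311 ± 502 (n = 3) in those of WD-fed mice. That is 1.67, 0.916, 1.57 and 1.03% of all TPM, and no CD45hi library reached a CD45lo library. The size of this gap depended on the scale. With TMM-normalised counts over effective length, brought to the same mean total, the means were 14036 and 10605 on the CD and 13132 and 12573 on the WD.

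On build mm10 the genes are spread over 8 chromosomes. *Ctsd* lies on the minus strand of chromosome 7 from 142375911 to 142388038 and *Ctsc* on the plus strand of the same chromosome from 88278085 to 88310888. *Ctsl* is on chromosome 13 from 64359337 to 64370890 and *Ctsf* on chromosome 19 from 4855130 to 4860918. RSEM shared reads of *Ctsa* and *Ctsb* with other genes or places in all 15 libraries, as the fractional counts show, and both overlap genes on the other strand, so their values are less certain. Fractional counts were also found for *Ctsd* in 10 libraries, *Ctsh* in 5 and *Ctsc* in 1. *Ctsd* overlaps *Gm49369* on its own strand, and its counts were fractional in every CD45lo library and in no CD45hi library of WD-fed mice. *Ctse*, *Ctsf*, *Ctsl*, *Ctss* and *Ctsz* had whole counts throughout, though all of these but *Ctse* and *Ctsf* overlap an annotated gene or pseudogene.

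RefSeq start sites on GRCm38.p6, the same build, gave 8 windows from 250 bases before to 50 after a start for 7 of the 10 genes (*Ctsa*, *Ctsc*, *Ctsd*, *Ctsf*, *Ctsl*, *Ctss* and *Ctsz*). The letters CACGTG, the core of the element that TFEB, a regulator of lysosomal genes, is known to bind, were in 4 of these 8 windows, those of *Ctsa*, *Ctsd*, *Ctsf* and *Ctsl*, against 7.15% of all 32851 windows. The stretches around the matches before the start are printed here with CACGTG in capitals, because they set these 4 genes apart from *Ctsc*, *Ctss* and *Ctsz*, in whose windows it was not found.
*Ctsa*, chr2:164833749-164833778, plus strand: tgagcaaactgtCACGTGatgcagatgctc
*Ctsd*, chr7:142387908-142387937, minus strand: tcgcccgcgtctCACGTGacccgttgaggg
*Ctsd*, chr7:142388055-142388077, minus strand: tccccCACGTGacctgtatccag
*Ctsf*, chr19:4855074-4855103, plus strand: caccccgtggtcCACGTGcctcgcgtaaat
*Ctsl*, chr13:64370739-64370768, minus strand: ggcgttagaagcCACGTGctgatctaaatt

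The matches begin 12 bases before the RefSeq start in *Ctsa*, which holds another after its start, 98 and 245 before it in *Ctsd*, 79 in *Ctsf* and 236 in *Ctsl*. The RefSeq starts of *Ctsa*, *Ctsd*, *Ctsf* and *Ctsl* lie inside the gene spans used above for positions. The printed stretches of *Ctsa* and *Ctsl* and the nearer one of *Ctsd* are within those spans, not upstream of them. That of *Ctsf* and the farther one of *Ctsd* lie upstream of the spans. GAGGAA or its reverse complement, the core of the PU.1 site, was in 2 of the 8 windows (*Ctsc* and *Ctss*) against 28.3% of all windows, and TGANTCA, the AP-1 letters, was in 0 of 8 against 7.81%. Both strands were searched, CACGTG reads the same on both, and these matches are letters in a window, not shown sites.

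CD45hi and CD45lo cells were compared within each diet. On a test of a change past 1.5-fold (edgeR glmTreat), 1 cathepsin was called in WD-fed mice, *Ctsc*, and 2 in CD-fed mice, *Ctsc* and *Ctse*, all higher in CD45hi cells. Of all 14967 genes tested, 5.18% were called with the WD and 3.98% with the CD, and 4.01% and 3.39% were called higher. The study's methods name an F test and call genes with an FDR under 0.05 and a change over 1.5-fold. They do not say whether the fold limit was part of the test or set afterwards. With the limit set after the F test (edgeR glmQLFTest), 4 cathepsins were called on the WD, against 8.91% of all genes. *Ctsc* and *Ctse* were higher and *Ctsf* and *Ctsl* lower. On the CD 5 were called, where *Ctsd* was lower too, against 7.76%. The study's own totals of called genes lie nearer to those of glmTreat (775 on the WD and 595 on the CD) than to these (1333 and 1162). On a test of any change (edgeR glmQLFTest), 5 of 10 were called in WD-fed mice, with *Ctsb*, *Ctsc* and *Ctse* higher and *Ctsf* and *Ctsl* lower in CD45hi cells, against 9.11% of all genes (6.21% higher and 2.89% lower). In CD-fed mice 6 of 10 were called, with *Ctsc* and *Ctse* higher and *Ctsd*, *Ctsf*, *Ctsl* and *Ctss* lower, against 8.03% (5.95% higher and 2.08% lower). *Ctsc*, *Ctse*, *Ctsf* and *Ctsl* were called in the same direction on both diets, and *Ctsa*, *Ctsh* and *Ctsz* on neither. The median log2 fold change of the 10 genes was 0.06 in WD-fed and -0.28 in CD-fed mice, beside 0.00016 and 0.04 for all genes. The comparisons within each diet share no library. The names of the deposited tables carry a number that 1 CD45hi and 1 CD45lo library share, and the sources used here do not say that it marks an animal. With that number as a block, *Ctsc* and *Ctse* were not called past 1.5-fold on the CD (edgeR glmTreat FDR = 0.0652 and 0.242) nor *Ctsc* on the WD (FDR = 0.108). For any change, *Ctse*, *Ctsf* and *Ctsl* were not called on the WD (edgeR glmQLFTest FDR = 0.169, 0.140 and 0.0559) nor *Ctse* and *Ctsf* on the CD (FDR = 0.144 and 0.0560).

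Among the cysteine cathepsins, *Ctsc* encodes the dipeptidyl peptidase that activates the serine proteases of neutrophil and lymphocyte granules. It was at 629, 561, 578 and 627 cpm in the CD45hi and 297, 299, 308 and 306 cpm in the CD45lo libraries on the CD. On the WD it was at 557, 679 and 505 cpm in CD45hi and at 286, 339, 295 and 240 cpm in CD45lo libraries. Every CD45hi library was above every CD45lo library on each diet. A gap of this kind in either direction was found in 23.4% of all genes in WD-fed and 16.5% in CD-fed mice, and for 5 and 4 of the 10 cathepsins. The difference was 1.98-fold on the CD (log2 fold change 0.99, SE 0.131, edgeR glmTreat FDR = 0.0226) and 2.00-fold on the WD (1.00, SE 0.139, FDR = 0.0239). Past 1.5-fold the call was a narrow one. In WD-fed mice its FDR was 0.0971 without CD45hi replicate 2 and 0.0583, 0.0510 and 0.0775 without CD45lo replicates 1, 3 and 4. In CD-fed mice it was 0.0593, 0.0694 and 0.0510 without CD45lo replicates 1, 2 and 4. The any-change call held without each library in turn, with FDR of at most 0.00098 on the WD and 0.00072 on the CD.

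*Ctsl*, a broad lysosomal endopeptidase, was lower in CD45hi cells. It was at 517, 443, 705 and 417 cpm in CD45hi and 979, 914, 898 and 966 cpm in CD45lo libraries on the CD, and at 587, 514 and 631 cpm in CD45hi and 921, 1018, 1016 and 803 cpm in CD45lo libraries on the WD. The groups did not overlap on either diet. *Ctsl* was 1.81-fold lower in CD45hi cells of CD-fed mice (log2 fold change -0.85, SE 0.150, edgeR glmQLFTest FDR = 0.00123) and 1.63-fold lower in those of WD-fed mice (-0.70, SE 0.164, FDR = 0.0103). Neither passed 1.5-fold by glmTreat (FDR = 0.162 and 0.388), but in CD-fed mice it did without CD45hi replicate 3, the highest of its group (FDR = 0.0108). *Ctsf*, a less abundant cysteine cathepsin, was lower too, at 61.9, 53.7, 26.5 and 86.1 cpm in CD45hi against 110 to 133 cpm in CD45lo libraries on the CD, and at 53.0, 42.3 and 44.5 cpm against 88.8 to 106 cpm on the WD. Again no CD45hi library reached a CD45lo library. The log2 fold change of *Ctsf* was -1.05 on the CD (SE 0.267, edgeR glmQLFTest FDR = 0.0204) and -1.08 on the WD (SE 0.294, FDR = 0.0267). The call for *Ctsf* in WD-fed mice was lost without CD45hi replicate 2 or 3 (FDR = 0.0695 and 0.0605) and without CD45lo replicate 1, 2 or 3 (FDR = 0.0685, 0.0501 and 0.0658), and in CD-fed mice without CD45lo replicate 3 (FDR = 0.0664). Past 1.5-fold it was gained in CD-fed mice without CD45hi replicate 4 (FDR = 0.0369).

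*Ctsb*, which has both endopeptidase and carboxypeptidase activity, was at 2434, 3109 and 2384 cpm in CD45hi and 1931, 1904, 2032 and 1701 cpm in CD45lo libraries on the WD. On the CD it was at 2260, 1922, 2451 and 2502 cpm against 2123, 1941, 2009 and 1948 cpm, and the groups overlapped. It was 1.40-fold higher in CD45hi cells on the WD (log2 fold change 0.48, SE 0.116, edgeR glmQLFTest FDR = 0.0129), a call lost without CD45hi replicate 2 (FDR = 0.0688). On the CD the log2 fold change was 0.19 (95% interval -0.04 to 0.42, FDR = 0.374). The difference between the diets in this contrast was not called (interaction 0.29, 95% interval -0.04 to 0.63).

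*Ctss* was at 3539, 2866, 4394 and 3824 cpm in CD45hi and 5439, 4272, 5367 and 4870 cpm in CD45lo libraries of CD-fed mice, where CD45lo replicate 2 lay below the highest CD45hi library. The WD libraries held 3998, 3987 and 4669 cpm against 4599, 4962, 4910 and 4002 cpm. It was lower in CD45hi cells of CD-fed mice by 1.36-fold (log2 fold change -0.45, SE 0.121, edgeR glmQLFTest FDR = 0.0294). Without CD45hi replicate 1 or 2, or CD45lo replicate 1, 3 or 4, the FDR of that call was 0.0647, 0.0749, 0.0975, 0.0949 and 0.0606. On the WD the log2 fold change was -0.13 (95% interval -0.41 to 0.15). *Ctsh*, an aminopeptidase, and *Ctsz*, a carboxypeptidase, overlapped between the populations on both diets. Their libraries ran from 337 to 488 cpm and from 184 to 322 cpm, and their log2 fold changes were 0.02 and -0.29 on the CD and 0.12 and 0.27 on the WD.

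**Figure D2:**
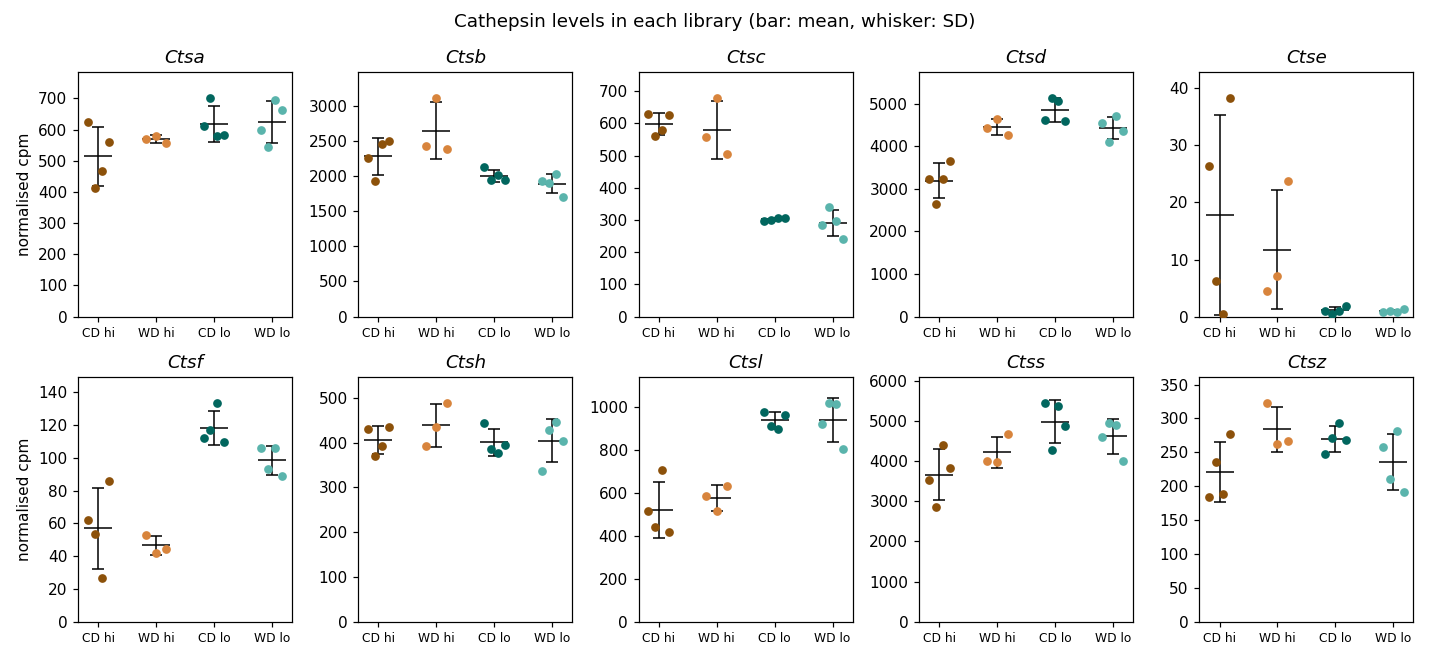
Normalised cpm of each cathepsin gene on axes that start at 0, with 1 point per library, the mean and the SD, for CD45hi (CD hi, WD hi) and CD45lo (CD lo, WD lo) cells. *Ctsc* is higher and *Ctsl* and *Ctsf* are lower in each CD45hi library than in each CD45lo library of the same diet, and the *Ctsd* libraries of CD45hi cells from CD-fed mice, at 2655 to 3666 cpm, lie below all others.

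Of the aspartic cathepsins, *Ctsd* was at 3233, 2655, 3234 and 3666 cpm in CD45hi and 4630, 5135, 5069 and 4601 cpm in CD45lo libraries on the CD, with no overlap. On the WD it was at 4443, 4649 and 4271 cpm in CD45hi and 4549, 4114, 4706 and 4362 cpm in CD45lo libraries, which overlapped. *Ctsd* was lower in CD45hi cells of CD-fed mice by 1.52-fold (log2 fold change -0.60, SE 0.0927, edgeR glmQLFTest FDR = 0.000356), and that call held without each library in turn (FDR of at most 0.00205). In WD-fed mice the log2 fold change was 0.0071 (95% interval -0.20 to 0.22).

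*Ctse*, which is found in endosomes of some immune cells, was low and uneven. It was at 26.3, 6.21, 0.440 and 38.3 cpm in the CD45hi libraries of CD-fed mice and 4.42, 7.04 and 23.7 cpm in those of WD-fed mice, against 0.415 to 1.93 cpm in CD45lo libraries of both diets. In CD-fed mice CD45hi replicate 3 lay within the range of the CD45lo libraries, and in WD-fed mice the groups did not overlap. The fitted log2 fold change was 4.03 on the CD (SE 1.01, edgeR glmTreat FDR = 0.0332) and 3.59 on the WD (SE 1.02, edgeR glmQLFTest FDR = 0.0343, glmTreat FDR = 0.0596). Past 1.5-fold on the CD, the FDR was 0.0669 and 0.111 without CD45hi replicate 1 or 4 and 0.105, 0.120, 0.105 and 0.0593 without CD45lo replicates 1 to 4. The any-change call was lost on the CD without CD45hi replicate 4 (FDR = 0.0562) or CD45lo replicate 1, 2 or 3 (FDR = 0.0612, 0.0676 and 0.0627). On the WD it was lost without CD45hi replicate 3 (log2 fold change 2.56, FDR = 0.124) or any of CD45lo replicates 1 to 4 (FDR = 0.0952, 0.0861, 0.0930 and 0.0714), and past 1.5-fold it was gained there without CD45hi replicate 1 (FDR = 0.0455) or CD-fed CD45hi replicate 3 (FDR = 0.0128). *Ctsa*, whose product also protects lysosomal galactosidase and neuraminidase, was at 411 to 623 cpm in CD45hi and 542 to 701 cpm in CD45lo libraries, which overlapped on both diets.

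The direction of several of these differences depended on the scale. After TMM normalization the median over all genes of the log2 fold change between CD45hi and CD45lo cells was near 0, while on the log2(TPM + 1) scale it was -0.52 in WD-fed and -0.43 in CD-fed mice, and with library sizes alone it was -0.31 and -0.20. On the TPM scale (limma, added after the data were seen) 0 cathepsins were called higher and 6 lower in CD45hi cells of WD-fed mice, against 3 and 2 after TMM. In CD-fed mice 1 was called higher and 6 lower, against 2 and 4. *Ctsb* turned from 0.48 to -0.07 in WD-fed and from 0.19 to -0.28 in CD-fed mice, and *Ctsd*, *Ctsh* and *Ctsz* in WD-fed mice turned to -0.53, -0.56 and -0.26. The values of *Ctsc* and *Ctse* were above 0 and those of *Ctsf* and *Ctsl* below 0 on all 3 scales and both diets. On the TPM scale, though, *Ctsc* in WD-fed mice (0.41, limma FDR = 0.103) and *Ctse* on both diets (FDR = 0.118 and 0.0979) were not called, and *Ctsd* in WD-fed mice was called lower (FDR = 0.00254). Relative to the median of all genes the TPM scale put *Ctsc* at 0.93 and 1.02, *Ctsl* at -0.72 and -0.91, *Ctsf* at -1.08 and -1.17 and *Ctsb* at 0.45 and 0.15 in WD- and CD-fed mice, close to their TMM values. *Ctsa* was at -0.46 and -0.45, from -0.13 and -0.30 relative to the median after TMM, and its effective length ran from 1306 to 1873 bases between libraries. *Ctse* was at 2.39 and 2.38, from 3.59 and 4.00, where adding 1 to its low TPM shrinks the difference. Past 1.5-fold *Ctsc* and *Ctse* were called on neither diet with library sizes alone (*Ctsc* edgeR glmTreat FDR = 0.365 on the WD and 0.281 on the CD and *Ctse* 0.0516 on the CD) or on the TPM scale. *Ctsf* and *Ctsl* on both diets and *Ctsd* on the CD were called lower there instead.

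**Figure D3:**
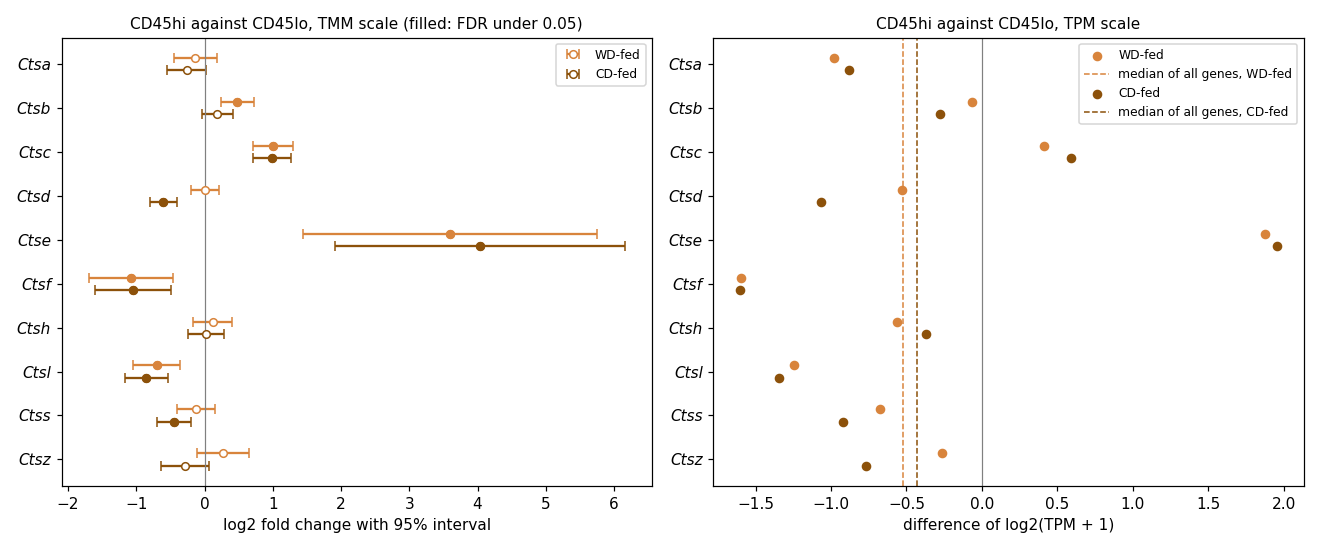
Left, log2 fold change of CD45hi against CD45lo cells after TMM normalization with its 95% interval, for each cathepsin gene and diet, with filled points where the FDR of any change was under 0.05. Right, the same contrast as a difference of log2(TPM + 1), with dashed lines at the median of all genes (-0.52 in WD-fed and -0.43 in CD-fed mice), so *Ctsb* and *Ctsz* in WD-fed mice sit below 0 but above their line.

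Ratios of 2 cathepsins within a library need no scaling between libraries. They are described here without a test, since the pairs were picked after their values were seen, and 6 ratios were computed. The log2 ratio of *Ctsc* to *Ctsl* counts was -1.63 ± 0.0736 in CD45lo and 0.23 ± 0.370 in CD45hi cells with the CD (SD, 4 libraries each), and -1.70 ± 0.0849 (n = 4) and 0.00062 ± 0.367 (n = 3) in those of WD-fed mice. The ratio of *Ctsb* to *Ctsl* was 1.09 ± 0.0629 and 2.16 ± 0.325 on the CD and 1.01 ± 0.0821 and 2.19 ± 0.359 on the WD. For *Ctsd* over *Ctsb* it was 1.28 ± 0.121 and 0.48 ± 0.0655 on the CD and 1.23 ± 0.101 and 0.76 ± 0.159 on the WD. The ratio of *Ctsb* to *Ctss* was -1.31 ± 0.121 and -0.67 ± 0.119 on the CD and -1.29 ± 0.0663 and -0.68 ± 0.307 on the WD. In each of these ratios the CD45hi and CD45lo libraries did not overlap on either diet. Those of *Ctsd* to *Ctss* overlapped on both diets, and those of *Ctsd* to *Ctsl* on the CD. The scatter of the *Ctsl* ratios was wider among CD45hi libraries.

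**Figure D4:**
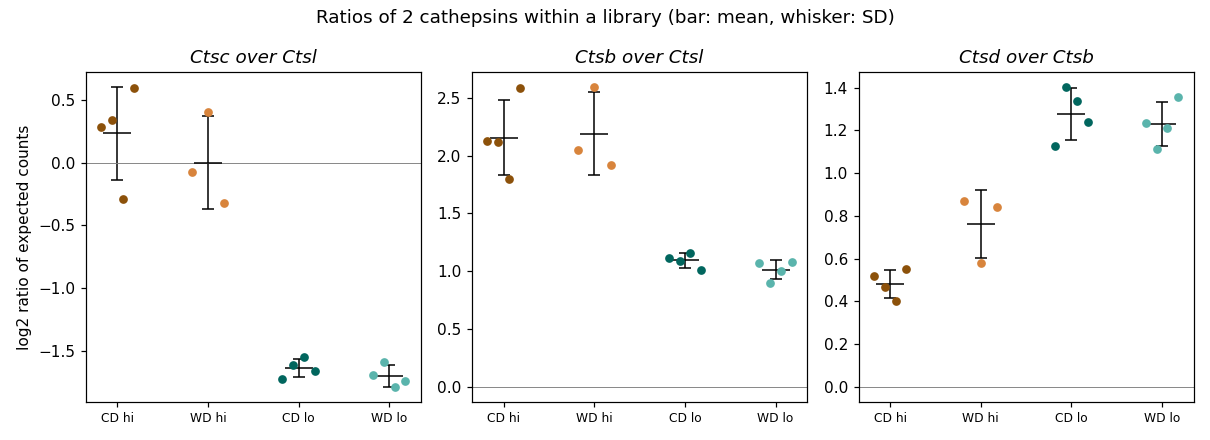
Log2 ratio of the expected counts of 2 cathepsin genes within each library, with 1 point per library, the mean and the SD for each group. *Ctsc* and *Ctsb* are higher against *Ctsl*, and *Ctsd* is lower against *Ctsb*, in all CD45hi libraries than in all CD45lo libraries.

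The effect of diet was tested within each cell type. In CD45hi cells 0 of 10 cathepsins were called (edgeR glmQLFTest; 1 at an unadjusted p under 0.05, as were 17.6% of all genes), against 0.254% of all genes, with a median log2 fold change of 0.15 beside -0.02 for all genes. In CD45lo cells 0 of 10 were called (0 at an unadjusted p under 0.05, as were 0.822% of all genes), where 0% of all genes were, and the medians were -0.10 and 0.0042. The *Ctsd* libraries of CD45hi cells, given above, did not overlap between the diets, with the lowest from WD-fed mice at 4271 and the highest from CD-fed mice at 3666 cpm. Such a gap was found in 2.58% of all genes in that direction. The log2 fold change of *Ctsd* in CD45hi cells was 0.48, or 1.39-fold (SE 0.0993, 95% interval 0.27 to 0.69), and just missed the threshold (edgeR glmQLFTest FDR = 0.0538). It passed without CD45hi replicate 4 of the CD-fed mice (0.55, FDR = 0.0259), without CD45hi replicate 3 of the WD-fed mice (0.51, FDR = 0.0377), and with DESeq2 (0.49, FDR = 0.0037) and limma-voom (0.48, FDR = 0.0269). It did not with only the CD45hi libraries fitted (0.48, edgeR glmQLFTest FDR = 0.783) or with the block by title number (0.50, FDR = 0.159), and without 1 library at a time the FDR ran from 0.0259 to 0.0890. The study itself reports *Ctsd* as significantly higher on the WD in CD45hi cells, under its less strict fold limit for diet. The fit with all groups used here did not reach that call, though its estimate was in the same direction. In CD45lo cells the log2 fold change of *Ctsd* was -0.13 (95% interval -0.33 to 0.06).

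The interaction, the difference between the diets in the contrast of CD45hi with CD45lo cells, was called for 0 of 10 cathepsins (edgeR glmQLFTest; 2 at an unadjusted p under 0.05, as were 10.1% of all genes), against 0.00668% of all genes. For *Ctsd* it was 0.61 (SE 0.136, 95% interval 0.32 to 0.90, FDR = 0.206), and with DESeq2 it was 0.63 with FDR = 0.0250, while the other alternatives, leaving out 1 library aside, gave an FDR from 0.0756 to 1.0. For *Ctsz* it was 0.56 (95% interval 0.04 to 1.08, FDR = 0.457). *Ctsz* was at 184, 235, 188 and 278 cpm in CD45hi cells of CD-fed mice and 322, 263 and 266 cpm in those of WD-fed mice, which overlapped.

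The 95% intervals, which are not adjusted for the number of genes, give the range left for each of the other members. For *Ctsb*, *Ctsc*, *Ctsh*, *Ctsl* and *Ctss* in CD45hi cells the 95% intervals of the WD-against-CD log2 fold change were -0.04 to 0.46, -0.34 to 0.25, -0.18 to 0.40, -0.19 to 0.49 and -0.07 to 0.48. In CD45lo cells they were -0.31 to 0.14, -0.33 to 0.21, -0.26 to 0.28, -0.31 to 0.32 and -0.37 to 0.14. For *Ctse* they were wide, -2.65 to 1.44 in CD45hi and -2.10 to 1.77 in CD45lo cells. For *Ctsa*, *Ctsf* and *Ctsz* they were -0.17 to 0.45, -0.90 to 0.31 and -0.02 to 0.74 in CD45hi cells. In CD45lo cells those of *Ctsa* and *Ctsz* were -0.27 to 0.30 and -0.55 to 0.15. *Ctsf* in CD45lo cells was lower in each WD than in each CD library (88.8 to 106 against 110 to 133 cpm), a gap that 1.29% of all genes showed in that direction, but its log2 fold change of -0.26 had a 95% interval of -0.82 to 0.29.

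**Figure D5:**
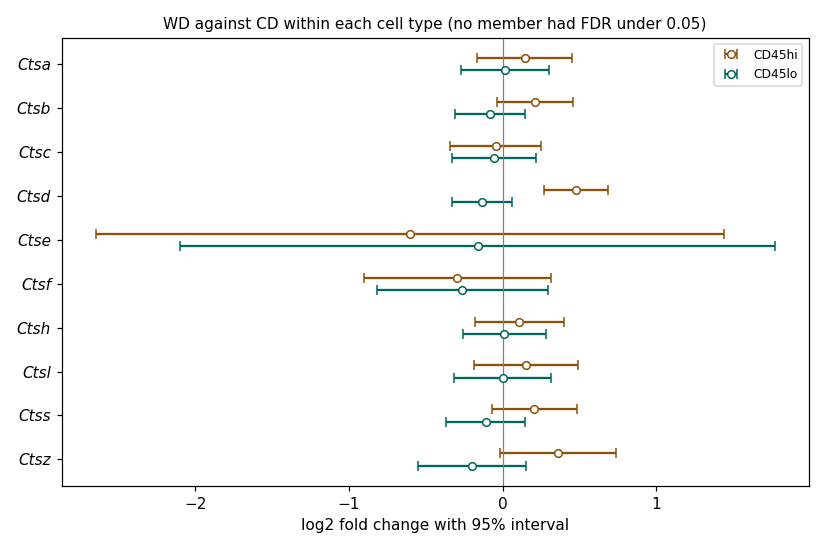
Log2 fold change of WD against CD with its 95% interval for each cathepsin gene, in CD45hi and in CD45lo cells. Open points mark genes not called, which here are all 10, and *Ctsd* in CD45hi cells at 0.48 is the only one of them whose interval lies clear of 0.

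Of the 13 other cathepsin genes, 8 had 0 counts in all 15 libraries and 5 were tested. *Ctso*, a cysteine cathepsin, was lower in CD45hi cells of WD-fed mice at 48.6 to 56.4 against 110 to 142 cpm (log2 fold change -1.26, SE 0.259, edgeR glmTreat FDR = 0.0410), while the CD libraries were at 48.2 to 122 against 118 to 144 cpm (FDR = 0.593). *Ctsk*, the cathepsin of bone resorption, reached 9.02 cpm in CD45hi replicate 2 of CD-fed mice and at most 2.03 cpm in any other library. *Ctsg* and *Ctsw*, cathepsins of neutrophil granules and cytotoxic lymphocytes, stayed at or under 2.07 and 2.24 cpm. The median log2 fold change of the 5 was 0.08 in WD-fed mice, or 0.17 without 1 gene at or under 3 counts in both groups, and 1.19 in CD-fed mice.

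Of 22 listed cathepsin inhibitors, 18 were in the files and 14 were tested. In WD-fed mice 3 were called higher and 0 lower past 1.5-fold, and in CD-fed mice 2 and 0. Of all genes 5.18% and 3.98% were called so, in either direction. *Cst3*, the secreted cystatin C, had the highest TPM of them in every group and was called for any change only, lower in CD45hi cells at 4117 to 5247 against 7330 to 8539 cpm on the WD (log2 fold change -0.69, edgeR glmQLFTest FDR = 0.000358) and at 3952 to 5180 against 7854 to 8082 cpm on the CD (-0.76, FDR = 6.26e-05). *Stfa2l1*, a stefin of neutrophils, was at 19.9 to 50.1 against 0 to 0.152 cpm on the WD and 5.30 to 92.5 against 0 to 0.511 cpm on the CD (edgeR glmTreat FDR = 0.000282 and 0.00043). *Gm5483*, a stefin-like gene, was at 0.752 to 3.60 and 5.01 to 18.6 cpm in the CD45hi cells of WD- and CD-fed mice and at most 0.681 cpm in CD45lo libraries (FDR = 0.0295 and 0.0169). *Ctla2b*, which resembles a cathepsin propeptide, was at 35.1 to 58.2 against 9.05 to 20.1 cpm on the WD (log2 fold change 1.90, FDR = 0.0458). The stefins are near copies of each other, so the split of reads between them is uncertain. The median log2 fold change of the list was 1.60 in WD-fed mice, or 0.49 with the 5 genes that lay at or under 3 counts in a group set at their bound, and 1.56 in CD-fed mice.

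Of 18 genes for the processing and delivery of lysosomal hydrolases, all were tested. Past 1.5-fold 5.18% of all genes were called in WD-fed and 3.98% in CD-fed mice, in either direction. In WD-fed mice 1 of the 18 was called higher, *Igf2r*, the large mannose 6-phosphate receptor, at 83.2, 17.8 and 3.84 against 0.445 to 1.81 cpm (edgeR glmTreat FDR = 0.0110). Its highest value is that of CD45hi replicate 1 of WD-fed mice, which stood apart on the second principal component. On the CD *Igf2r* was at 8.06, 31.4, 15.4 and 3.03 cpm in CD45hi against 0.123 to 2.49 cpm in CD45lo libraries. The groups did not overlap there, but it was not called. In CD-fed mice 1 was called lower, *Lgmn*, the legumain that cleaves cathepsin precursors, at 489 to 662 against 1080 to 1099 cpm (log2 fold change -0.94, SE 0.120, FDR = 0.0268). For any change *Lgmn* and *Sort1*, a sorting receptor, were lower on both diets, with *Lgmn* at 582 to 744 against 934 to 1048 cpm on the WD (-0.53, edgeR glmQLFTest FDR = 0.0135), and *Sort1* at 146 to 208 against 250 to 311 cpm on the WD (-0.79, FDR = 0.0153). In that test 1 of the 18 was also called higher on each diet. These were *Igf2r* on the WD and another gene, whose libraries overlapped, on the CD. Of all genes 9.11% were called for any change on the WD and 8.03% on the CD, in either direction. *Tfeb* itself was at 11.5 to 27.6 cpm in CD45hi and 11.9 to 26.6 cpm in CD45lo libraries. The list's median was 0.21 in WD-fed and -0.18 in CD-fed mice.

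Of 16 substrates and partners, 15 were tested. Past 1.5-fold 4 were called higher and 0 lower in CD45hi cells of WD-fed mice, and 3 higher and 1 lower, *Lgmn*, in those of CD-fed mice. The shares of all genes called in either direction were 5.18% and 3.98%. *Cd74*, the invariant chain that *Ctss* and *Ctsl* products cleave, was at 2457 to 5201 against 47.3 to 89.3 cpm on the WD and at 3117 to 6236 against 49.9 to 96.9 cpm on the CD (log2 fold change 5.61 and 5.80, edgeR glmTreat FDR = 6.06e-08 and 2.51e-08). The granzymes *Gzma* and *Gzmb*, which the *Ctsc* product activates, were at 14.3 to 64.0 and 7.75 to 10.4 cpm in CD45hi cells of WD-fed mice, with *Gzma* at 0 and *Gzmb* at most at 0.0656 cpm in their CD45lo cells (FDR = 0.0280 and 0.0298). *Nkg7*, of cytotoxic granules, was at 2.73 to 18.9 against 0 to 0.0656 cpm on the WD (FDR = 0.000784). On the CD *Nkg7* was called higher past 1.5-fold as well, and *Gzma* and *Gzmb* were called higher for any change only. The list's median was 0.58 in WD-fed mice, or 0.66 with genes at or under 3 counts at their bound, and 0.54 in CD-fed mice. None of the 4 lists had a gene called between the diets in either cell type (edgeR glmQLFTest).

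The pattern of each member over the 15 libraries was set beside those of 9549 genes with a mean of at least 10 cpm in a group, as Pearson's r of log2 cpm. These correlations describe mainly the 2 sorted populations and share library and depth. *Ctsc* was most like *Cd44*, *Ifitm2* and *Samd9l* (r = 0.985, 0.983 and 0.983), *Ctsf* most like *Lpcat3*, *Lactb2* and *Tmem66* (0.973, 0.939 and 0.931) and *Ctsl* most like *Pter*, *Atp6v0a2* and *Cd164* (0.948, 0.946 and 0.942). *Ctsd* was most like *Pmp22*, *Zbtb4* and *Ckb* (0.939, 0.908 and 0.908), *Ctss* most like *Ywhah*, *Gspt1* and *Itm2b* (0.929, 0.886 and 0.879), and *Ctsb* most like *Clec4a3*, *Wipf1* and *Gm10288* (0.912, 0.907 and 0.904). *Ctse* was most like *Spib*, *Ap2a2* and *Jhdm1d* (0.928, 0.912 and 0.909). *Ctsa* followed *Ckb*, *Rpn1* and *Tmbim6* (0.877, 0.859 and 0.851), *Ctsz* followed *Asrgl1*, *Rn7sk* and *Sar1a* (0.862, 0.821 and 0.800), and *Ctsh* had the weakest likeness, with *Gbp6*, *Wipf2* and *Pgm2l1* (0.780, 0.752 and 0.723). Between members the lowest r was that of *Ctsc* with *Ctsl*, -0.879.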

How the data were processed

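RNA was sequenced from FACS-sorted CD11b+CD45hi and CD11b+CD45lo brain cells in 15 libraries. The authors made poly(A) libraries, trimmed 75 bp paired-end reads, and deposited RSEM expected counts (RSEM 1.2.12 with Bowtie2, build mm10), which are not normalized, beside TPM values, which are divided by effective length and scaled to the same total in each library. The release of the annotation and the use of strand are not given in the sources used here.

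Expected counts were rounded. Only genes that reached 1 cpm in 2 or more libraries entered (14967 of 38924), normalized by TMM and fitted together with edgeR 4.0.16 in R 4.3.3 with 4 groups. The earlier form of its quasi-likelihood method was used, with glmTreat past 1.5-fold and glmQLFTest for any change, diet and interaction. The limit was a Benjamini-Hochberg FDR of 0.05 over all genes tested. The study's methods name the F test and require both the FDR and the fold limit, without saying whether the fold limit was part of the test. The SE is the log2 fold change over the square root of F. Alternatives were DESeq2 1.42.0, limma-voom (limma 3.58.1), other size factors and filters, the edgeR 4 form, robust estimates, counts not rounded, only the groups compared, the fold limit set afterwards, replicate blocks and leaving out each library. Library sizes alone, limma on log2(TPM + 1), and leaving out both CD45hi libraries that stood apart were added after the data were seen. On simulated data for the WD-fed CD45hi contrast, 19 of 100 genes changed 2-fold and 75 of 100 changed 4-fold were recovered for any change over 14443 genes.

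The members and lists were chosen with earlier results of these data known. All 10 members were named throughout. Of each other pathway list the genes called between CD45 levels were named, at most the 4 with the highest absolute log2 fold change in WD-fed mice and no overlap of libraries. *Tfeb*, *Ctsk*, *Ctsg*, *Ctsw* and *Mpo* were named after their values were seen. Positions are those of GENCODE M21, and start-site windows come from RefSeq (GRCm38.p6). Python 3.11.15 was used for description.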

Additional observations from a re-analysis of the deposited data

How the results depend on the processing

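The counts of cathepsins called were small and moved with the settings. Past 1.5-fold in WD-fed mice (1 called) the count was 2, *Ctsc* and *Ctse* higher, with DESeq2, the stricter filter, the edgeR 4 form or both outlying CD45hi libraries left out. It was also 2 with library sizes alone or TPM, but these were *Ctsf* and *Ctsl*, both lower. It was 4 with the fold limit set afterwards and 0 with limma-voom, and with only the 2 groups compared the 1 called was *Ctse*. Past 1.5-fold in CD-fed mice (2 called) it was 1 with limma-voom or only the 2 groups compared (*Ctsc*) or without a filter (*Ctse*), and 5 with the limit set afterwards. With library sizes alone or TPM it was 3, *Ctsd*, *Ctsf* and *Ctsl*, all lower, and with both outlying libraries left out it was 2, *Ctsc* higher and *Ctsf* lower. Diet in CD45hi cells (0 called) gave 1, *Ctsd*, with DESeq2, limma-voom, the stricter filter, the edgeR 4 form, library sizes alone or both outlying libraries left out, and the interaction gave 1 with DESeq2. Without 1 library at a time the counts ran from 0 to 2 and 0 to 3 past 1.5-fold in WD- and CD-fed mice, 3 to 5 and 3 to 6 for any change, and 0 to 1 for diet in CD45hi cells. The summed TPM became 10605, 14036, 12573 and 13132 in CD45hi and CD45lo cells of CD-fed and then WD-fed mice on TMM-scaled counts.

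Replicate numbers were not taken as pairs, since no source used here ties them to animals. No pair's correlation reached 0.1, which alone does not show that the libraries were unpaired. On the CD both numberings agree. The mean correlation of same-numbered deviations was 0.015 by title and 0.024 by file numbering. Among the 4 CD45lo libraries of their diet, 3 and 5 of 7 CD45hi libraries were most like their own number. With the replicate block the counts past 1.5-fold by title and file number were 0 and 0 on the WD, 1 and 0 on the CD, and any change in WD-fed mice gave 2 by file number. By title the calls lost were *Ctsc* on the WD and *Ctse* on the CD past 1.5-fold (edgeR FDR = 0.0535 and 0.0673) and *Ctsf* on the WD for any change (0.0608). Values that changed sign under the block by title were *Ctse* (diet in CD45hi 0.074, in CD45lo 0.068, interaction 0.0061), *Ctsl* (CD45lo diet -0.0100), *Ctsc* (interaction -0.0075) and *Ctsf* (0.062, by file number 0.11).

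Of the cathepsins called, only *Ctsb* in WD-fed mice changed sign (TPM, -0.068). Others that did were not called, and the cause was not tested. With library sizes alone they were, for CD45hi against CD45lo, *Ctsd* -0.31, *Ctsh* -0.20 and *Ctsz* -0.045 in WD-fed and *Ctsb* -0.051 and *Ctsh* -0.21 in CD-fed mice, and *Ctsc* -0.070 for the interaction. With TPM they were *Ctsd* -0.53, *Ctsh* -0.56 and *Ctsz* -0.26 in WD-fed, *Ctsb* -0.28 and *Ctsh* -0.37 in CD-fed mice, *Ctsa* -0.083 and *Ctsh* -0.13 for diet in CD45hi and *Ctsl* -0.0018 in CD45lo cells, and *Ctsa* -0.10, *Ctsc* -0.18, *Ctsf* 0.0025 and *Ctsh* -0.19 for the interaction. With both outlying libraries left out they were *Ctsh* -0.011 in CD-fed mice, *Ctsc* 0.0042 and *Ctse* 0.48 for diet in CD45hi cells, and *Ctse* 0.64 and *Ctsf* 0.13 for the interaction. With limma-voom *Ctse* was 0.086 and 0.014 for diet in CD45hi and CD45lo cells and 0.072 for the interaction. For diet in CD45lo cells *Ctsl* was -0.0020 with DESeq2 and its size factors and -0.00019 with only the 2 groups, and *Ctsa*, *Ctsh* and *Ctsl* were -0.0060, -0.0073 and -0.019 without a filter. Without 1 library at a time *Ctsd* in WD-fed mice ran from -0.027 to 0.037 and *Ctsh* in CD-fed mice from -0.016 to 0.075. Diet in CD45hi cells ran from -0.17 to 0.045 for *Ctsc* and -1.63 to 0.091 for *Ctse*. Diet in CD45lo cells ran from -0.038 to 0.077 for *Ctsa*, -0.14 to 0.022 for *Ctsc*, -0.44 to 0.27 for *Ctse*, -0.039 to 0.090 for *Ctsh* and -0.040 to 0.069 for *Ctsl*. The interaction ran from -0.12 to 0.10 for *Ctsc*, -1.47 to 0.25 for *Ctse* and -0.27 to 0.24 for *Ctsf*.

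With 3 or 4 libraries a group, changes near 2-fold were often not called in data simulated for WD-fed CD45hi cells alone. That run changed fewer genes than were called here between the populations. It therefore does not give the power for the cathepsins or for the other contrasts. A cathepsin not called is bounded only by its interval. *Ctse* in CD45lo cells lay near the counting floor.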

Other observations

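*Mpo*, which encodes a neutrophil granule peroxidase, was at 75.4 and 74.1 cpm in CD45hi and CD45lo replicate 2 of CD-fed mice. *Ctsg* was highest in the same 2 libraries, at 2.07 and 1.25 cpm. In WD-fed mice *Mpo* was at 43.5 cpm in CD45hi replicate 3, where *Ctsg* was at 0. In their CD45lo replicates 1, 2 and 4 *Mpo* was at 12.4, 3.93 and 18.6 cpm and *Ctsg* at 0, 0 and 0.152 cpm. *Mpo* was at most at 0.851 cpm in every other library.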
